A study of Mus musculus with 24 samples.

Results

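Metalloproteases, plasminogen activators and serpins are enzymes that cut proteins outside the cell or at its surface, together with the proteins that hold such enzymes in check. Their genes were picked from the deposited table by symbol: matrix metalloproteases (Mmp), ADAM and ADAMTS metalloproteases, tissue inhibitors of metalloproteases (Timp), serpins, and Plau, Plaur and Plat, with Serpinf1 left out by the rule. This gave 48 of 12091 genes, made up of 11 Mmp, 8 Adam, 11 Adamts, 3 Timp and 12 serpin genes and the 3 genes of plasminogen activation.

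RNA was sequenced from mouse breast cancer models in 4 experiments, each with 3 control samples and 3 samples in which pleiotrophin (Ptn), a secreted heparin-binding growth factor, was blocked or depleted. The 4T1 line was implanted into the mammary fat pad of BALB/c mice, and MMTV-PyMT tumors arose in FVB/N mice whose mammary epithelium carries the polyoma middle T transgene; the mice of both models received 15 mg/kg of the control antibody C44 or of the anti-Ptn antibody 3B10. E0771 is a mammary carcinoma line of C57BL/6 mice and E0771-LG a line taken from a lung metastasis of it; each was infected with a control vector that targets EGFP (shCtrl) or with a vector against Ptn (shPTN) and selected with puromycin. For both lines 1 shRNA construct was used and the populations were selected separately, so effects of the construct on other genes and differences that arose in selection cannot be told apart from the loss of Ptn. MMTV-PyMT mice were treated from 8 to 12 wk of age, and the 4T1 line was implanted in 8-wk-old females.

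Matrix metalloproteases digest collagens and other matrix proteins, and most are secreted as precursors that other proteases activate. ADAM proteases cut membrane proteins at the cell surface and so release growth factors and cytokines, ADAMTS proteases are secreted and cut proteoglycans and procollagens, and TIMPs block metalloproteases. Urokinase (Plau), held at the surface by its receptor (Plaur), and tissue plasminogen activator (Plat) turn plasminogen into plasmin, serpins trap serine proteases, and in mammary tumors cancer cells, fibroblasts and leukocytes all make members of these families.

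Levels are log2 CPM (reads of a gene per M reads on genes) in MMTV-PyMT tumors and cells, where whole reads could be recovered from the values, at 15.6 to 21.1 M reads on genes per sample (median 18.2). Every MMTV-PyMT C44 library, at 18.8 to 19.3 M reads, was larger than every 3B10 library, at 16.3 to 18.4 M, and the part of this in the tumor results was not tested. The 4T1 values are on a log2 scale of their own, apparently normalized for gene length, with unknown depth, so 4T1 levels are compared only with each other. In E0771 cells Ptn had 128, 92 and 80 reads in the shCtrl samples and 12, 21 and 22 in the shPTN samples. E0771-LG cells had 216, 446 and 248 reads with shCtrl and 56, 35 and 45 with shPTN. The groups of each line did not overlap, with a log2 fold change of −2.40 (SE 0.37, 5.28-fold lower, adjusted p = 0.00159) in E0771 and of −2.71 (SE 0.28, 6.52-fold lower, adjusted p = 6.3e-05) in E0771-LG cells. MMTV-PyMT tumors had 133, 127 and 201 reads with C44 and 158, 142 and 303 with 3B10, which overlap (log2 fold change 0.50, adjusted p = 1.0). In 4T1 tumors the Ptn log2 values were −0.19, −0.65 and −0.12 with C44 and −0.76, 0.86 and 0.37 with 3B10, too low to be tested.

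In control E0771 cells the collagen chaperone Serpinh1 was the highest member per gene length, at 322 ± 15.1 CPM per kilobase of exon (SD, n = 3), followed by Timp2 at 92.2 ± 5.23, Serpinb6a at 76.5 ± 0.51 and Adam9 at 57.0 ± 4.45. E0771-LG control cells had Serpinh1 at 363 ± 72.9, Timp2 at 79.4 ± 3.20, Serpinb6a at 54.6 ± 3.35 and Plau at 49.6 ± 1.91; there Plau, Mmp3 (46.7 ± 19.9) and Plaur (46.5 ± 3.41) lay within the spread of one another. Among MMTV-PyMT C44 tumors Serpinh1 (139 ± 24.1), Mmp15 (64.5 ± 14.4) and Timp2 (60.4 ± 6.76) led on the same scale. The highest 4T1 C44 values, on the log2 scale of those samples, were those of Serpinh1 (9.49 ± 0.11, SD, n = 3), Mmp14 (9.20 ± 0.29), Timp2 (8.79 ± 0.23) and Timp1 (8.36 ± 0.17). Of the 48 genes, 12 had at most 25 reads in each of the 12 cell samples: Mmp12, Mmp16, Adam12, Adamts2, Adamts9, Adamts15, Timp3, Serpina3g, Serpina3n, Serpinb5, Serpine2 and Serping1, with Mmp16 and Timp3 at 0 reads throughout.

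**Figure D1:**
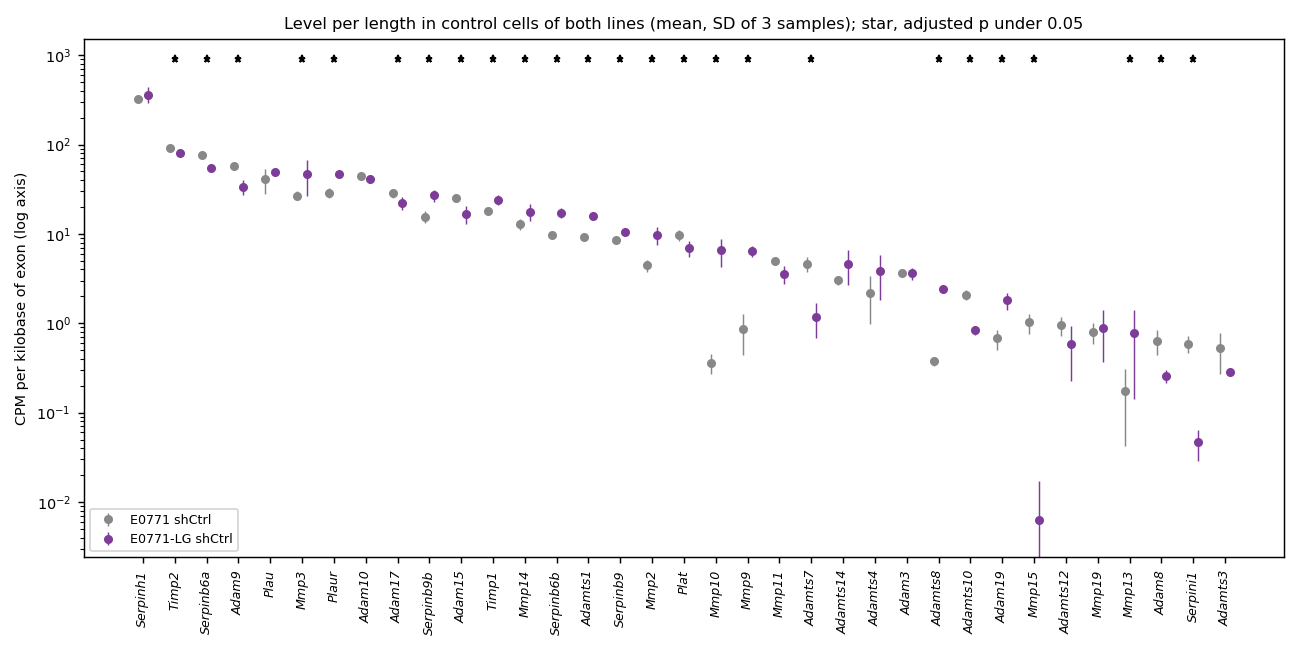
CPM per kilobase of exon (log axis) of genes tested between the lines, in E0771 shCtrl (gray) and E0771-LG shCtrl cells (purple), as mean and SD of 3 samples. Stars mark adjusted p under 0.05; Mmp15 and Serpini1 are lower in E0771-LG cells, and Mmp9, Mmp10 and Adamts8 higher.

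Levels of proteases and inhibitors differed between shPTN and shCtrl samples in both lines. For 12 of 36 genes (33.3%, near the 34.0% of all genes tested) this difference was not the same in the parental line and its lung-derived descendant. In E0771 cells the gelatinase Mmp2, its activator Mmp14 and the inhibitor Timp2 rose, and the urokinase receptor Plaur fell. In E0771-LG cells the secreted proteases Mmp2, Mmp3, Mmp9 and Mmp10 fell, as did Timp2, while Mmp11, Mmp14 and Plaur rose. Changes are from limma on the deposited log2 values with Benjamini-Hochberg adjustment over every gene tested, and a gene is said to have risen or fallen at an adjusted p under 0.05. These are bulk samples, in which fewer cells of a type and less RNA per cell cannot be told apart.

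Of the 48 genes, 34 passed the filter on low values in E0771 cells, and 11 of them (32.4%) passed the test, beside 20.6% of the 10394 genes tested. The 11 were 7 that rose, beside 8.89% of all genes tested, and 4 that fell, beside 11.7%. The median log2 fold change of the 34 was −0.01 and its median size 0.40, against −0.03 and 0.19 over all genes. In E0771-LG cells 33 passed the filter and 16 (48.5%) passed the test, near the 46.4% of all 10405 genes tested, so the share says nothing about these families; 8 rose, beside 24.3% of all genes, and 8 fell, beside 22.1%. Their median log2 fold change was −0.11 and its median size 0.43, against 0.05 and 0.37 over all genes. Without E0771-LG shPTN replicate 2 the count was 10, and that over all genes 3206 instead of 4826. Adam8 passed the filter in E0771-LG cells through the shCtrl samples alone.

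The difference of the knockdown effect between the lines, E0771-LG minus E0771, was tested with an interaction term over the 12 cell samples. Of 36 genes tested, 12 (33.3%) passed, near the 34.0% of all 10600 genes. Of these, 3 had a higher effect in E0771-LG cells, beside 18.3% of all genes, and 9 a lower one, beside 15.7%. The median difference was 0.02 and its median size 0.45, against 0.08 and 0.40 over all genes.

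**Figure D2:**
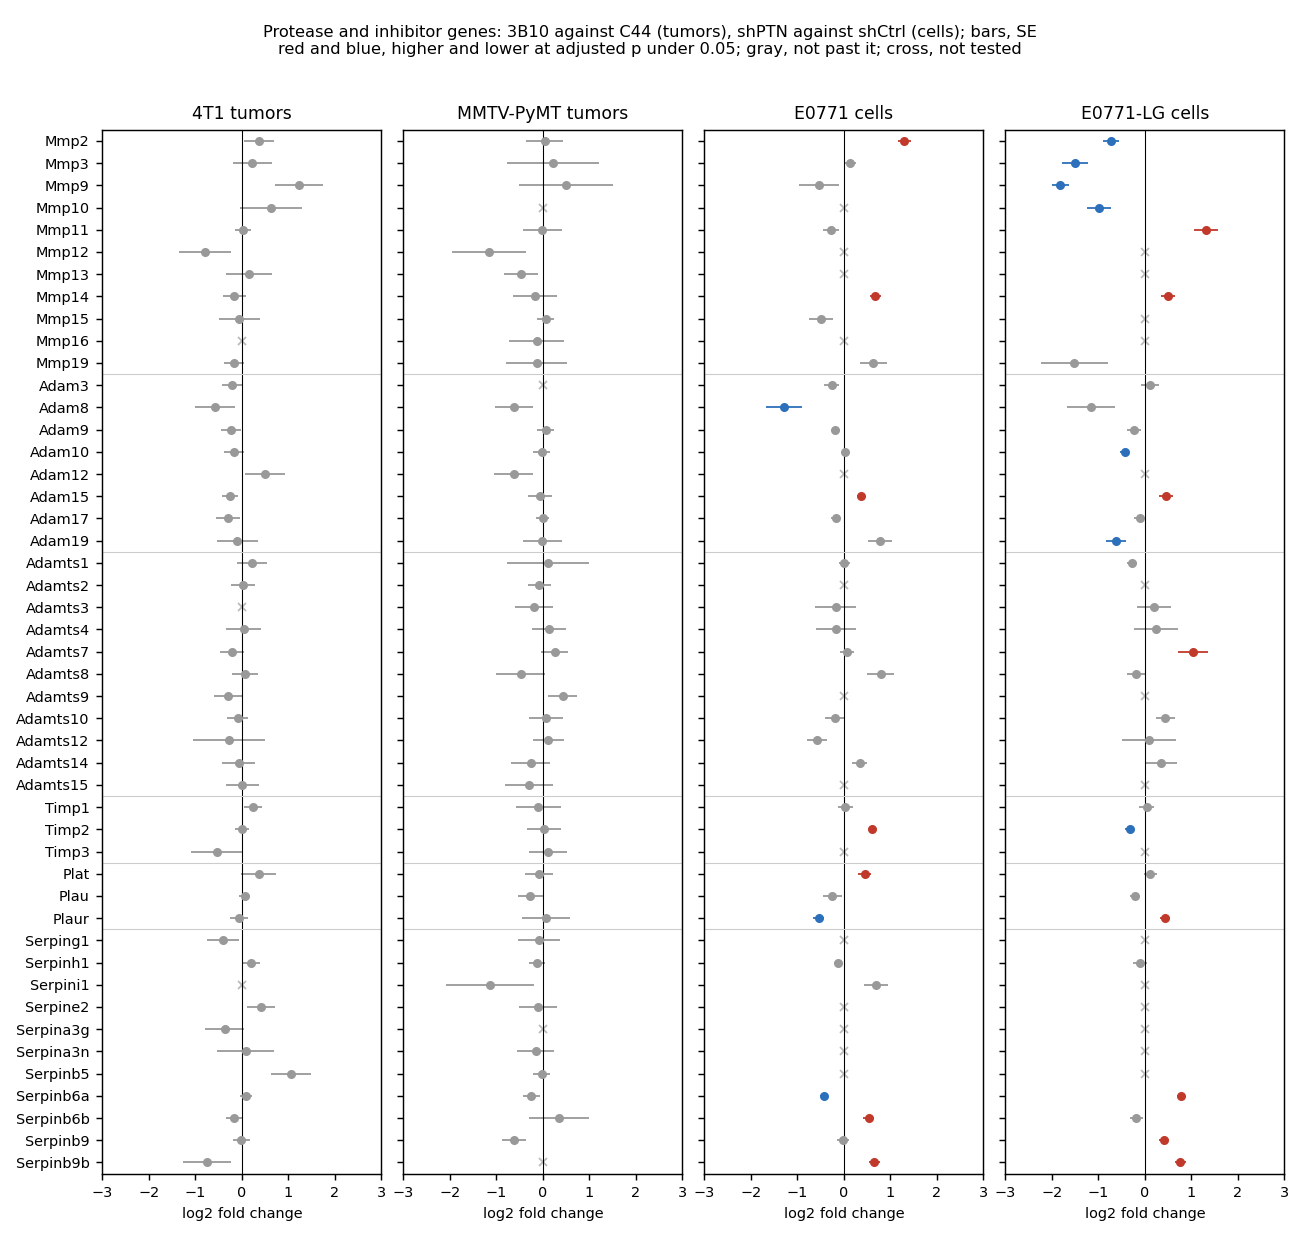
Log2 fold change with SE for genes of these families in the 4 experiments, 3B10 against C44 in tumors and shPTN against shCtrl in cells. Red genes rose and blue genes fell at an adjusted p under 0.05, gray genes did not pass the test and crosses were not tested; 0 genes are colored in the tumors.

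Mmp2, gelatinase A, cuts denatured collagen and basement membrane collagen. Its log2 CPM was 3.66, 4.11 and 3.94 in E0771 shCtrl and 5.16, 5.29 and 5.16 in E0771 shPTN samples. Every shPTN sample was above every shCtrl sample, a log2 fold change of 1.30 (SE 0.14, 2.46-fold higher, adjusted p = 0.000207). In the E0771-LG samples Mmp2 was at 4.61, 5.31 and 5.12 with shCtrl and 4.27, 4.27 and 4.30 with shPTN. Here the shPTN samples were all lower, with a log2 fold change of −0.74 (SE 0.17, 1.67-fold lower, adjusted p = 0.00557). The interaction, E0771-LG minus E0771, was −2.04 (SE 0.23, adjusted p = 3.51e-05). Mmp14, a membrane protease that activates the Mmp2 precursor, was at 6.02, 6.46 and 6.29 in E0771 shCtrl and 6.86, 6.95 and 7.002 in E0771 shPTN samples. It rose by 0.68 (SE 0.11, 1.60-fold higher, adjusted p = 0.00235), with no overlap of the groups. In E0771-LG cells Mmp14 was at 6.34, 6.95 and 6.84 with shCtrl and 7.20, 7.18 and 7.21 with shPTN, again with every shPTN sample above, and rose by 0.49 (SE 0.14, 1.41-fold higher, adjusted p = 0.0169). That call ended without E0771-LG shPTN replicate 1, 2 or 3 (adjusted p = 0.0505, 0.0592 and 0.0582) or with plain eBayes, neither robust nor with trend, and without E0771-LG shCtrl replicate 1 the fold change was 0.31. The Mmp14 effect did not differ detectably between the lines (−0.19, adjusted p = 0.487).

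Mmp9, gelatinase B, was at 4.27, 4.63 and 4.64 log2 CPM in E0771-LG shCtrl and 2.48, 2.85 and 2.75 in E0771-LG shPTN samples. The groups were well apart, and Mmp9 fell by 1.82 (SE 0.18, 3.52-fold lower, adjusted p = 6.12e-05) on the log2 scale. In E0771 cells it had 30, 95 and 45 reads with shCtrl and 31, 25 and 50 with shPTN, which overlap (−0.54, adjusted p = 0.417). The difference between the lines was −1.28 (SE 0.49, adjusted p = 0.056), past the threshold in 8 of the alternatives tried and not otherwise, so that the Mmp9 effect is not shown to differ. Mmp3, stromelysin 1, a broad matrix protease that also activates other Mmp precursors, was at 5.86, 6.97 and 6.11 in E0771-LG shCtrl and 4.57, 4.91 and 4.94 in E0771-LG shPTN samples. All shPTN values were below all shCtrl values, of which replicate 2 was the highest, and the log2 fold change was −1.51 (SE 0.28, 2.84-fold lower, adjusted p = 0.00462). E0771 cells had Mmp3 at 5.45, 5.77 and 5.57 with shCtrl and 5.94, 5.55 and 5.70 with shPTN, with overlap (0.13, adjusted p = 0.495). For Mmp3 the interaction was −1.64 (SE 0.32, adjusted p = 0.00265).

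Mmp10, stromelysin 2, had 175, 308 and 152 reads in E0771-LG shCtrl and 99, 114 and 97 in E0771-LG shPTN samples. All shPTN samples were below the shCtrl samples (−0.99, SE 0.26, 1.99-fold lower, adjusted p = 0.00976). In E0771 cells it had 12, 9 and 12 reads with shCtrl and 24, 18 and 21 with shPTN, under the filter there. The interaction term, fitted over all 12 cell samples, was −1.93 (SE 0.46, adjusted p = 0.00588). Mmp13, a collagenase of fibrillar collagen, had 12, 13 and 1 reads in E0771 shCtrl and 20, 15 and 24 in E0771 shPTN samples. It had 21, 78 and 18 in E0771-LG shCtrl and 10, 5 and 11 in E0771-LG shPTN samples, so it was under the filter in each line alone. Its difference between the lines was −3.56 (SE 1.09, adjusted p = 0.021), a value that rests on few reads, with 1 read in E0771 shCtrl replicate 3. Mmp13 entered that fit through 2 E0771 shPTN and 2 E0771-LG shCtrl samples alone, the groups whose high values make the difference negative. With a pseudocount of 1 this was −1.50, and the call ended without E0771 shPTN replicate 3 (adjusted p = 0.0531) and without E0771-LG shPTN replicate 2 (adjusted p = 0.0554). Mmp11, stromelysin 3, went the other way in E0771-LG cells, at 3.39, 3.58 and 2.89 log2 CPM with shCtrl and 4.04, 5.03 and 4.73 with shPTN. It rose by 1.32 (SE 0.27, 2.49-fold higher, adjusted p = 0.0035), with no overlap. In E0771 cells its change was −0.28 (adjusted p = 0.295), and the difference between the lines was 1.59 (SE 0.34, adjusted p = 0.00297).

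Of the other Mmp genes, Mmp15, a membrane-bound protease, had 82, 146 and 77 reads in E0771 shCtrl samples and did not pass the test there (−0.49, adjusted p = 0.22). Mmp19 did not pass in E0771 (0.64, adjusted p = 0.141) or E0771-LG cells (−1.51, adjusted p = 0.11), though it passed in E0771-LG cells in 4 of the alternatives tried. In E0771-LG cells Mmp19 was at 0.097, 2.175 and 1.983 log2 CPM with shCtrl and −1.494, 0.659 and 0.549 with shPTN. Replicate 1 was far below the others in each group, and the size of the Mmp19 change depends on these samples. The Mmp19 difference between the lines was −2.15 (SE 0.84, adjusted p = 0.0603), past the threshold in 6 of the alternatives, so whether the Mmp19 effect differs is open. Taken as a family, 7 of 11 Mmp genes passed the filter in E0771 cells, with a median log2 fold change of 0.14, and 7 in E0771-LG cells, with a median of −0.99, against −0.03 and 0.05 over all genes. Mmp10 and Mmp15 each passed in 1 line only, so the 7 are not the same genes.

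**Figure D3:**
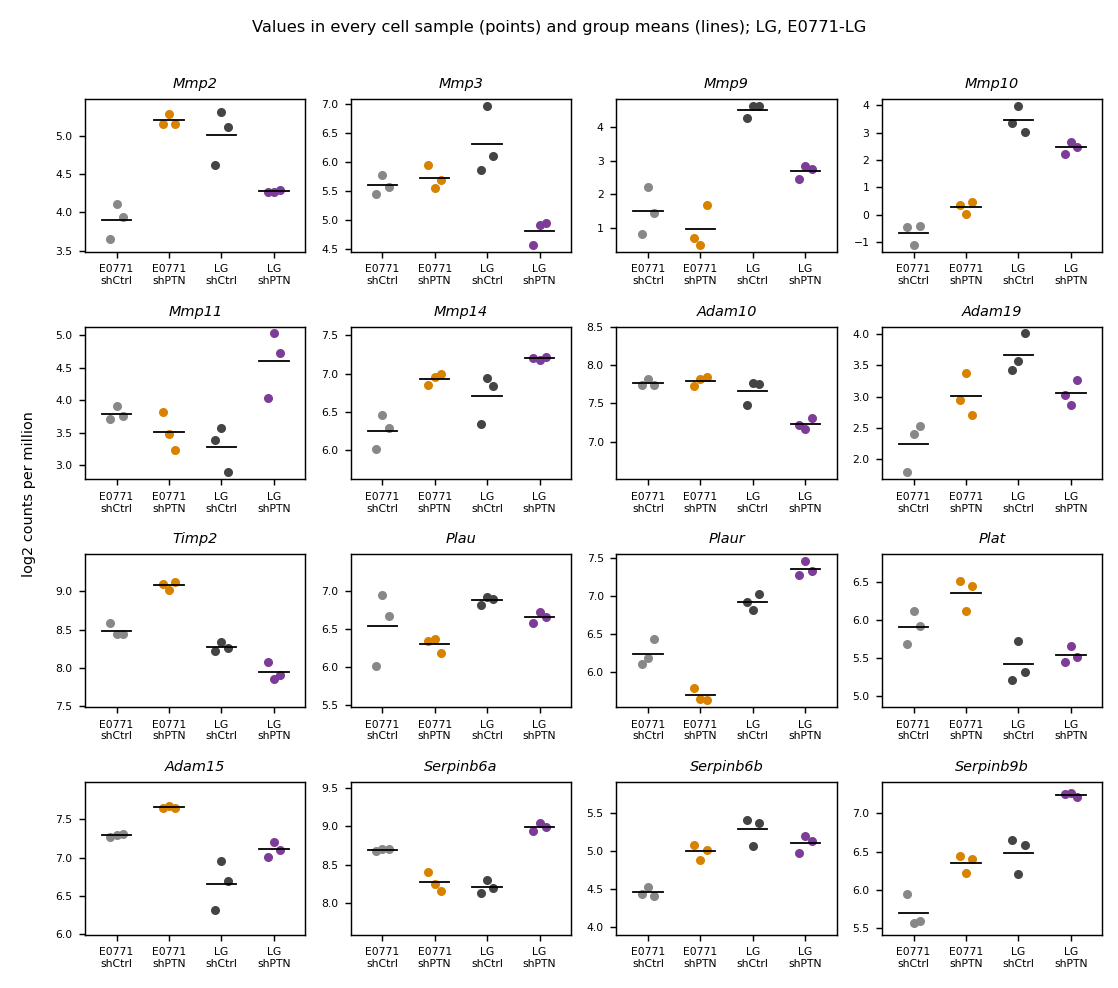
Log2 CPM of 16 genes in each sample of E0771 and E0771-LG (LG) cells, with points for samples and lines for means of 3. Mmp9 and Mmp3 are lower in every E0771-LG shPTN sample than in every E0771-LG shCtrl sample, and Serpinb9b is higher with shPTN in both lines.

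Among the ADAM proteases, Adam10, which sheds cadherins, Notch receptors and growth factor precursors, was at 7.48, 7.76 and 7.76 log2 CPM in E0771-LG shCtrl and 7.21, 7.17 and 7.31 in E0771-LG shPTN samples. The groups do not overlap, and it fell, with a log2 fold change of −0.44 (SE 0.11, 1.35-fold lower, adjusted p = 0.00642). E0771 cells had Adam10 at 7.75, 7.82 and 7.74 with shCtrl and 7.73, 7.82 and 7.84 with shPTN, which overlap (0.03, adjusted p = 0.834), and the difference between the lines was −0.46 (SE 0.13, adjusted p = 0.0122). Adam17, the main protease that releases Tnf and ligands of the EGF receptor, did not pass the test in E0771 (−0.18, adjusted p = 0.228) or E0771-LG cells (−0.11, adjusted p = 0.503). Adam19 was at 3.43, 3.58 and 4.01 in E0771-LG shCtrl and 3.03, 2.87 and 3.27 in E0771-LG shPTN samples. It fell there (−0.62, SE 0.21, 1.53-fold lower, adjusted p = 0.0303), a call that ended without E0771-LG shCtrl replicate 3 (adjusted p = 0.152) or E0771-LG shPTN replicate 1 or 2 (adjusted p = 0.0661 and 0.115). In E0771 cells Adam19 was at 1.79, 2.41 and 2.52 with shCtrl and 2.94, 3.37 and 2.71 with shPTN, with every shPTN sample above but an adjusted p of 0.0577 (log2 fold change 0.77). Adam19 passed there with median-of-ratios scaling, with the replicate block and in the fit of all 12 cell samples. Its effect differed between E0771-LG and E0771 cells, at −1.39 (SE 0.34, adjusted p = 0.00718).

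Adam15, which carries an integrin-binding domain, rose in E0771 cells, from 7.27, 7.30 and 7.31 to 7.65, 7.68 and 7.65 (0.36, SE 0.07, 1.29-fold higher, adjusted p = 0.00613), with no overlap, though not in the fit of all 12 cell samples (adjusted p = 0.0514). In E0771-LG cells it was at 6.31, 6.95 and 6.70 with shCtrl and 7.01, 7.21 and 7.11 with shPTN, also apart, and rose by 0.45 (SE 0.15, 1.37-fold higher, adjusted p = 0.0282). This last call ended without E0771-LG shCtrl replicate 3 (adjusted p = 0.0589) or E0771-LG shPTN replicate 2 or 3 (adjusted p = 0.113 and 0.0787), without the filter and with plain eBayes, and without E0771-LG shCtrl replicate 1 the fold change was 0.28. Adam8, a protease best known from leukocytes, had 34, 64 and 63 reads in E0771 shCtrl and 17, 31 and 16 in E0771 shPTN samples. It fell by 1.28 (SE 0.39, 2.44-fold lower, adjusted p = 0.0376) on the log2 scale, but not without E0771 shCtrl replicate 2 or 3 (adjusted p = 0.119 and 0.163) or E0771 shPTN replicate 1 or 3 (adjusted p = 0.0858 and 0.114), nor without the filter or in the fit of all 12 cell samples. With a pseudocount of 1 the Adam8 value was −0.84. Its 20, 20 and 26 reads in E0771-LG shCtrl and 10, 13 and 7 in E0771-LG shPTN samples gave −1.16 (adjusted p = 0.0885). Adam8 passed in E0771-LG cells in 4 of the alternatives: without the filter, with plain eBayes, with quantile normalization and in the fit of all 12 cell samples. Neither Adam3 nor Adam9 passed the test in E0771 or E0771-LG cells, with log2 fold changes between −0.26 and 0.12.

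Of the secreted ADAMTS proteases, 8 of 11 passed the filter in each line, 0 passed the test in E0771 and 1 in E0771-LG cells by limma; at an unadjusted p under 0.05 there were 2 in each line, beside shares of all genes of 34.1% (E0771) and 54.1% (E0771-LG), or 20.6% and 46.4% after adjustment. Adamts7, which cuts cartilage oligomeric matrix protein, was at 1.97, 3.25 and 3.17 log2 CPM in E0771-LG shCtrl and 3.76, 3.68 and 4.08 in E0771-LG shPTN samples. Every shPTN sample was above, with shCtrl replicate 1 far below the other shCtrl samples, and the log2 fold change was 1.04 (SE 0.32, 2.06-fold higher, adjusted p = 0.0249). Without that replicate it was 0.63, and the call ended without E0771-LG shPTN replicate 1, 2 or 3 (adjusted p = 0.0618, 0.0598 and 0.0884) or without the filter. In E0771 cells Adamts7 changed by 0.06 (adjusted p = 0.803), and the difference between the lines had an adjusted p of 0.0676 (0.98). This passed in 4 of the alternatives tried, voom and the replicate block among them, so whether the Adamts7 effect differs is open. Adamts8 passed the test of the difference between the lines (−0.97, SE 0.34, adjusted p = 0.0401) while passing in neither line alone (E0771 0.79, E0771-LG −0.18). That call ended with voom and without any of 9 of the 12 cell samples, which were E0771 shCtrl replicates 1 and 3, E0771 shPTN replicates 1 and 3, every E0771-LG shCtrl replicate and E0771-LG shPTN replicates 1 and 2, with adjusted p between 0.0534 and 0.0969. The other Adamts genes tested lay between −0.58 and 0.34 in E0771 and between −0.28 and 0.44 in E0771-LG cells.

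Timp2 blocks many metalloproteases and, at the cell surface, helps Mmp14 activate Mmp2. It was at 8.58, 8.44 and 8.44 log2 CPM in E0771 shCtrl and 9.10, 9.02 and 9.12 in E0771 shPTN samples. Each shPTN sample was above each shCtrl sample (0.59, SE 0.08, 1.51-fold higher, adjusted p = 0.00074). In E0771-LG cells Timp2 was at 8.22, 8.33 and 8.27 with shCtrl and 8.08, 7.85 and 7.90 with shPTN, where the shPTN samples were lower (−0.33, SE 0.09, 1.25-fold lower, adjusted p = 0.0145). The E0771-LG call ended without E0771-LG shPTN replicate 2 (adjusted p = 0.0767) or 3 (adjusted p = 0.0674). The interaction was −0.92 (SE 0.12, adjusted p = 8.67e-05), and Mmp2 and Timp2 both rose in E0771 and fell in E0771-LG cells. Timp1 did not pass the test in E0771 (0.03, adjusted p = 0.922) or E0771-LG cells (0.04, adjusted p = 0.864), and Timp3, which had 0 reads, was tested in neither.

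Urokinase, Plau, was at 6.02, 6.94 and 6.67 log2 CPM in E0771 shCtrl and 6.34, 6.37 and 6.19 in E0771 shPTN samples. These overlap, and the log2 fold change of −0.24 had an adjusted p of 0.444. Without E0771 shCtrl replicate 1, the lowest of its group, Plau passed the test. In E0771-LG cells Plau was at 6.81, 6.92 and 6.89 with shCtrl and 6.58, 6.73 and 6.66 with shPTN. There the shPTN samples were the lower ones, but the adjusted p was 0.0792 for a change of −0.22. Plau passed there with median-of-ratios scaling and without E0771-LG shCtrl replicate 1. Its receptor Plaur was at 6.10, 6.18 and 6.43 in E0771 shCtrl and 5.80, 5.66 and 5.64 in E0771 shPTN samples. All shPTN samples were lower, with a log2 fold change of −0.54 (SE 0.11, 1.46-fold lower, adjusted p = 0.00603). The E0771-LG samples had Plaur at 6.92, 6.82 and 7.03 with shCtrl and 7.27, 7.46 and 7.33 with shPTN, all higher with shPTN (0.43, SE 0.10, 1.35-fold higher, adjusted p = 0.00519). The effects differed by 0.98 (SE 0.15, adjusted p = 0.000286). Plat was at 5.69, 6.12 and 5.92 in E0771 shCtrl and 6.51, 6.11 and 6.44 in E0771 shPTN samples, which overlap in 1 sample of each group, and rose by 0.44 (SE 0.14, 1.36-fold higher, adjusted p = 0.0395). Without E0771 shCtrl replicate 1 or 3 or E0771 shPTN replicate 1 or 3 that call ended (adjusted p = 0.124, 0.102, 0.0877 and 0.147), as it did without the filter, with plain eBayes (neither trend nor robust) and in the fit of all 12 cell samples. Plat did not pass in E0771-LG cells (0.12, adjusted p = 0.52).

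Of the serpins, Serpine2, an inhibitor of thrombin and urokinase, was not tested in cells, where it had at most 3 reads in a sample. Serpinb9b rose in both lines, from 5.94, 5.56 and 5.59 to 6.45, 6.22 and 6.40 in E0771 cells (0.66, SE 0.12, 1.58-fold higher, adjusted p = 0.00393). In E0771-LG cells it rose from 6.65, 6.21 and 6.59 to 7.25, 7.27 and 7.21 (0.76, SE 0.12, 1.69-fold higher, adjusted p = 0.000664). In neither line did the groups overlap. Its neighbor Serpinb9, an inhibitor of granzyme B, did not pass in E0771 cells (−0.02, adjusted p = 0.933) and rose in E0771-LG cells (0.41, SE 0.11, 1.33-fold higher, adjusted p = 0.0122), where all shPTN samples were above; the call ended without E0771-LG shPTN replicate 2 (adjusted p = 0.0501).

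Serpinb6a, an intracellular serpin, was at 8.68, 8.70 and 8.70 in E0771 shCtrl and 8.40, 8.25 and 8.15 in E0771 shPTN samples. It was lower in each shPTN sample (−0.42, SE 0.08, 1.34-fold lower, adjusted p = 0.00566). E0771-LG cells had it at 8.12, 8.30 and 8.20 with shCtrl and 8.93, 9.05 and 8.99 with shPTN, higher in each shPTN sample (0.78, SE 0.09, 1.72-fold higher, adjusted p = 9.74e-05). The Serpinb6a effects thus differed in sign, with an interaction of 1.21 (SE 0.12, adjusted p = 1.3e-05). Serpinb6b was at 4.44, 4.53 and 4.41 in E0771 shCtrl and 5.08, 4.89 and 5.02 in E0771 shPTN samples and rose by 0.53 (SE 0.12, 1.45-fold higher, adjusted p = 0.00872), without overlap. It did not pass in E0771-LG cells (−0.18, adjusted p = 0.279), and the difference was −0.71 (SE 0.17, adjusted p = 0.00537). Serpinb6a, Serpinb6b, Serpinb9 and Serpinb9b are close in sequence, the last 3 also neighbors on chromosome 13 and the first almost 1 Mb away, and whether reads of one were counted on another is unknown. Exons of Serpinb6a also share 14.1% of their length with Nqo2 and 10.8% with 1110046J04Rik, both on the opposite strand. Serpinb9b shares 8.3% with Gm36099 in the same way. Of the other overlaps, those above 5% are Adam15 with 4731419I09Rik (20.6%), Adam19 with Gm16033 (8.3%) and Gm16034 (6.7%), Adam3 with Gm45528 (6.8%), Mmp19 with Tmem198b (22.3%) and Gm47093 (6.0%), Timp3 with Syn3 (21.3%), Adamts9 with A730049H05Rik (9.2%), Adamts8 with Gm29724 (10.6%) and Mmp11 with Chchd10 (5.6%). Since the strand used in counting is not given, the values of these genes are uncertain, and the share of reads affected is unknown. Serpinh1 did not pass in E0771 (−0.13, adjusted p = 0.31) or E0771-LG cells (−0.11, adjusted p = 0.573), and Serpini1, a neuronal inhibitor of Plat, did not pass in E0771 cells (0.69, adjusted p = 0.0912).

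**Figure D4:**
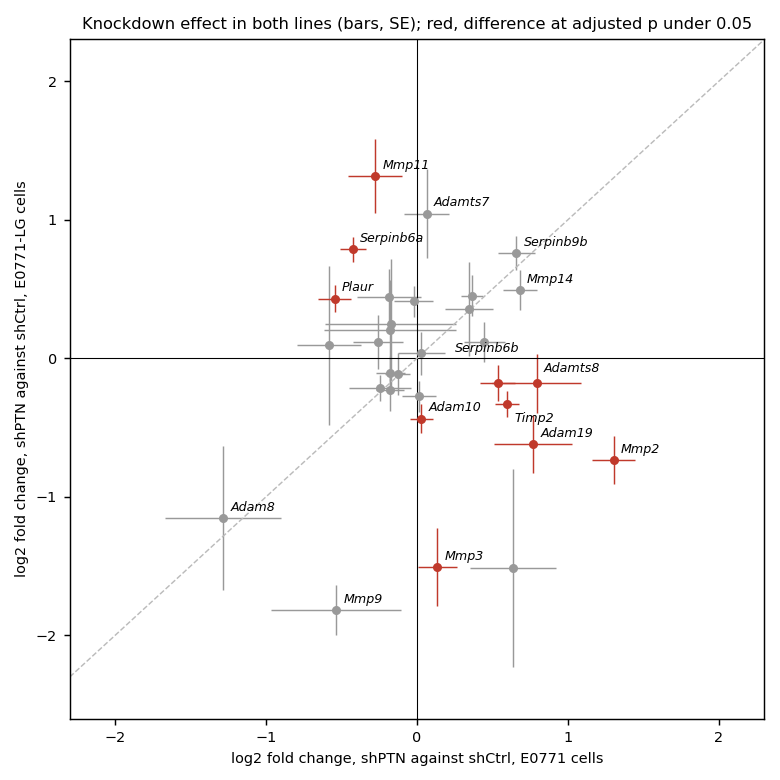
Log2 fold change of shPTN against shCtrl in E0771 (horizontal) and E0771-LG cells (vertical) with SE, for genes tested in both lines; on the dashed line the effects are equal. In red are genes whose difference between the lines had an adjusted p under 0.05, among them Mmp2 at 1.30 and −0.74; Mmp10 and Mmp13, not tested in E0771 cells, are not drawn.

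Mmp13, Mmp12, Mmp3 and Mmp10 lie in this order in a cluster on chromosome 9, all on the plus strand; Mmp12 was under the filter in cells. The knockdown effect was lower in E0771-LG than in E0771 cells for Mmp3, Mmp10 and, with the few reads and the filter described above, Mmp13, and the promoters of these 3 neighbors are shown for that reason. RefSeq promoters of GRCm38.p6, from 250 bases before to 50 after the start of the gene, were at hand for 32 of the 48 genes (36 promoters). Each was searched for TGANTCA, the motif bound by AP-1 factors, which reads the same on both strands. The promoters of 7 genes held it, those of Adam19, Mmp3, Mmp10, Mmp12, Mmp13, Plaur and Serpinb5, or 19.4% of the 36, beside 7.81% of 32851 promoters of all genes. Mmp3, Mmp10, Mmp12 and Mmp13 among them are the neighbors of the cluster above, and an excess over all genes was not tested. In the sequences below, at chr9:7445572-7445871 for Mmp3, chr9:7502092-7502391 for Mmp10 and chr9:7272264-7272563 for Mmp13, capitals mark the match, which begins 46, 63 and 35 bases before the start. A match describes the letters only, and binding was not measured.
Mmp3: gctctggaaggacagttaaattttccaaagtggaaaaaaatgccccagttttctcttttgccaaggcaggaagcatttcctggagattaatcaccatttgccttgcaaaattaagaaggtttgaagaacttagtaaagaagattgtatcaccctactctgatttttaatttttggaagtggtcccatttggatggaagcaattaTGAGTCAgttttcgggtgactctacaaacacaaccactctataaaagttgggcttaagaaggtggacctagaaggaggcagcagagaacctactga
Mmp10: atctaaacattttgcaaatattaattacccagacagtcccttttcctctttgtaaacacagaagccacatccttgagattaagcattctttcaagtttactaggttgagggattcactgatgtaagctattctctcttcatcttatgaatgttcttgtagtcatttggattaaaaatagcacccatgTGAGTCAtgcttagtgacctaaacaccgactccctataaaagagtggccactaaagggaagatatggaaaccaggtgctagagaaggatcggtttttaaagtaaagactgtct
Mmp13: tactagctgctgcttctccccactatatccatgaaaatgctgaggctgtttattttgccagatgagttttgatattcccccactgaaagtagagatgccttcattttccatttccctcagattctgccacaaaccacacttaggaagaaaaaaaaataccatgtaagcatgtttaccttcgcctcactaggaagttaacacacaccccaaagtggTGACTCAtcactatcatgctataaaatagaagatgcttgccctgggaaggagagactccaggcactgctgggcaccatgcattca

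Between the control cells, E0771-LG shCtrl and E0771 shCtrl, the lines differed in many of these genes. The lung-derived line had more Mmp10, Mmp9 and Adamts8 and less Mmp15, Serpini1 and Adamts7. These control samples are also those of the knockdown comparisons, so the values are given side by side and not compared. Of 36 genes tested, 26 (72.2%) passed, beside 57.9% of all 10600 genes; 15 were higher in E0771-LG cells, beside 20.5% of all genes, and 11 lower, beside 37.3%. The median log2 difference was 0.22 and its median size 0.75, against −0.15 and 0.43 over all genes. The choice of scaling moved the median of all genes, by 0.19 with quantile normalization and 0.16 with median-of-ratios scaling, and the split of 15 higher and 11 lower became 17 and 9 or 18 and 8. Some genes entered this test through 1 line: no E0771-LG shCtrl sample was past the filter for Mmp15 or Serpini1, and no E0771 shCtrl sample for Mmp10 or Mmp13. Log2 differences are given without such scaling, so they are to be read against the median of −0.15.

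Mmp10 had 12, 9 and 12 reads in E0771 shCtrl and 175, 308 and 152 in E0771-LG shCtrl samples, a log2 difference of 4.11 (SE 0.33, 17.3-fold higher, adjusted p = 1.13e-07), or 2.89 with a pseudocount of 1. The groups are far apart. Mmp9 had 30, 95 and 45 reads in E0771 shCtrl and 333, 483 and 463 in E0771-LG shCtrl samples, also with no overlap (3.01, SE 0.35, 8.06-fold higher, adjusted p = 4.08e-06). Adamts8, which cuts aggrecan, had 26, 38 and 31 reads in E0771 shCtrl and 197, 215 and 206 in E0771-LG shCtrl samples (2.66, SE 0.24, 6.33-fold higher, adjusted p = 4.16e-07), higher in each E0771-LG sample. Mmp13, with the reads given above, differed by 2.28 (SE 0.77, adjusted p = 0.0196), which was 0.96 with a pseudocount of 1 and ended without E0771 shCtrl replicate 3 (1.30, adjusted p = 0.112) or E0771-LG shCtrl replicate 2 (1.66, adjusted p = 0.0946). Without overlap of the groups, Adam19 was higher by 1.43, Mmp2 by 1.11, Serpinb6b by 0.82, Serpinb9b by 0.78, Adamts1 by 0.78 and Plaur by 0.69. Mmp3 was higher by 0.72 (adjusted p = 0.017), by 0.39 without E0771-LG shCtrl replicate 2, and did not pass without E0771 shCtrl replicate 1 (adjusted p = 0.0604). The other 3 were higher by 0.29 to 0.45, and none of them kept its call when each library was left out in turn, while with quantile normalization they were 0.53 to 0.71 and passed.

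Mmp15 had 82, 146 and 77 reads in E0771 shCtrl and 0, 2 and 0 in E0771-LG shCtrl samples. It was nearly absent from the lung-derived line, and the pooled reads, 305 against 2, give a ratio of 156 at equal depth (95% interval 42.8 to 1293.0, counting error only; adjusted p = 6.57e-06). Serpini1 had 57, 93 and 84 reads in E0771 shCtrl and 4, 6 and 9 in E0771-LG shCtrl samples, lower in every E0771-LG sample (−3.59, SE 0.46, 12.1-fold lower, adjusted p = 1.15e-05; with a pseudocount of 1, −1.97). Adamts7, at 4.54, 5.13 and 4.86 log2 CPM in E0771 shCtrl and at the E0771-LG values given above, differed by −2.05 (SE 0.28, 4.13-fold lower, adjusted p = 3.22e-05), with no overlap. Adamts10 (−1.31, or −0.85 with quantile normalization), Adam9 (−0.77), Adam15 (−0.64) and Serpinb6a (−0.49) were also lower in every E0771-LG shCtrl sample. Adam8 differed by −1.26 (SE 0.43, adjusted p = 0.0219), but did not pass with quantile normalization (−0.77, adjusted p = 0.17) or without E0771 shCtrl replicate 2 or 3 or E0771-LG shCtrl replicate 2 (adjusted p = 0.0673, 0.101 and 0.0551). Plat (−0.49, adjusted p = 0.0114) overlapped between the lines and did not pass without E0771 shCtrl replicate 2 (adjusted p = 0.0607), with quantile normalization or with median-of-ratios scaling. Adam17 (−0.37, adjusted p = 0.0132) did not pass with median-of-ratios scaling or without E0771 shCtrl replicate 2 or E0771-LG shCtrl replicate 1 (−0.25, adjusted p = 0.0615, and 0.0707 without the former). Timp2 (−0.21, adjusted p = 0.0393), close to the shift of the median, did not pass with median-of-ratios scaling (−0.05), with plain eBayes or without any one of E0771 shCtrl replicates 1, 2 and 3, E0771 shPTN replicate 3, E0771-LG shCtrl replicates 1 and 3 and E0771-LG shPTN replicate 3 (adjusted p = 0.0508 to 0.15).

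In the tumors, 3B10 against C44, 0 of these genes passed the test. In 4T1 tumors 45 of the 48 passed the filter (all but Mmp16, Adamts3 and Serpini1) and limma called 0 of them, as it called 0% of all 11467 genes, and 2 of the 45 had an unadjusted p under 0.05, beside 6.27% of all genes. Their groups overlapped: 0 of the 45 had C44 and 3B10 values apart, beside 11.3% of all genes. Mmp9 was at 5.80, 7.09 and 5.56 with C44 and 6.36, 7.90 and 7.88 with 3B10 on the 4T1 log2 scale, and C44 replicate 2 was above 3B10 replicate 1 (1.23, SE 0.52, adjusted p = 0.776). Serpinb5, a serpin of normal mammary epithelium, was at 1.87, 2.50 and 1.39 with C44 and 3.74, 2.23 and 2.96 with 3B10, with 3B10 replicate 2 below C44 replicate 2 (1.06, SE 0.43, adjusted p = 0.754). The other log2 fold changes of the proteases Mmp2 (0.38), Mmp14 (−0.16), Adam10 (−0.17) and Adam17 (−0.30) did not pass. Neither did those of Timp1 (0.24), Timp2 (0.00) and Timp3 (−0.54), of Plau (0.06), Plaur (−0.07) and Plat (0.37), or of Serpine2 (0.41). The median of the 45 was −0.05 and its median size 0.20, against 0.01 and 0.14 over all genes.

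In MMTV-PyMT tumors 44 of the 48 passed the filter (all but Mmp10, Adam3, Serpina3g and Serpinb9b). Limma called 0 of them, as it called 0% of all 11361 genes, and voom on the recovered reads also called 0, and 1 had an unadjusted p under 0.05, beside 2.70% of all genes. The same gene was the 1 of 44 whose groups did not overlap, beside 8.34% of all genes. This was Serpinb9, at 4.60, 4.83 and 5.15 log2 CPM with C44 and 4.48, 4.50 and 3.74 with 3B10. Each 3B10 tumor was below each C44 tumor, 3B10 replicate 3 the lowest (−0.62, SE 0.26, adjusted p = 1). For 3 against 3 the smallest exact permutation p is 0.1. Mmp2 (0.04), Mmp9 (0.50), Mmp14 (−0.18), Adam10 (−0.03) and Adam17 (−0.01) did not pass, with overlapping groups. The same held for Timp1 (−0.10), Timp2 (0.02), Timp3 (0.10), Plau (−0.27), Plaur (0.06), Plat (−0.09) and Serpine2 (−0.11). Some levels varied widely within a group, as for Mmp9, with 50, 52 and 3 reads in C44 and 23, 28 and 27 in 3B10 tumors. The positive sign of the Mmp9 value rests on C44 replicate 3 alone, as the other C44 tumors were above every 3B10 tumor in log2 CPM. The median of the 44 was −0.07 and its median size 0.13, against 0.05 and 0.13 over all genes.

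**Figure D5:**
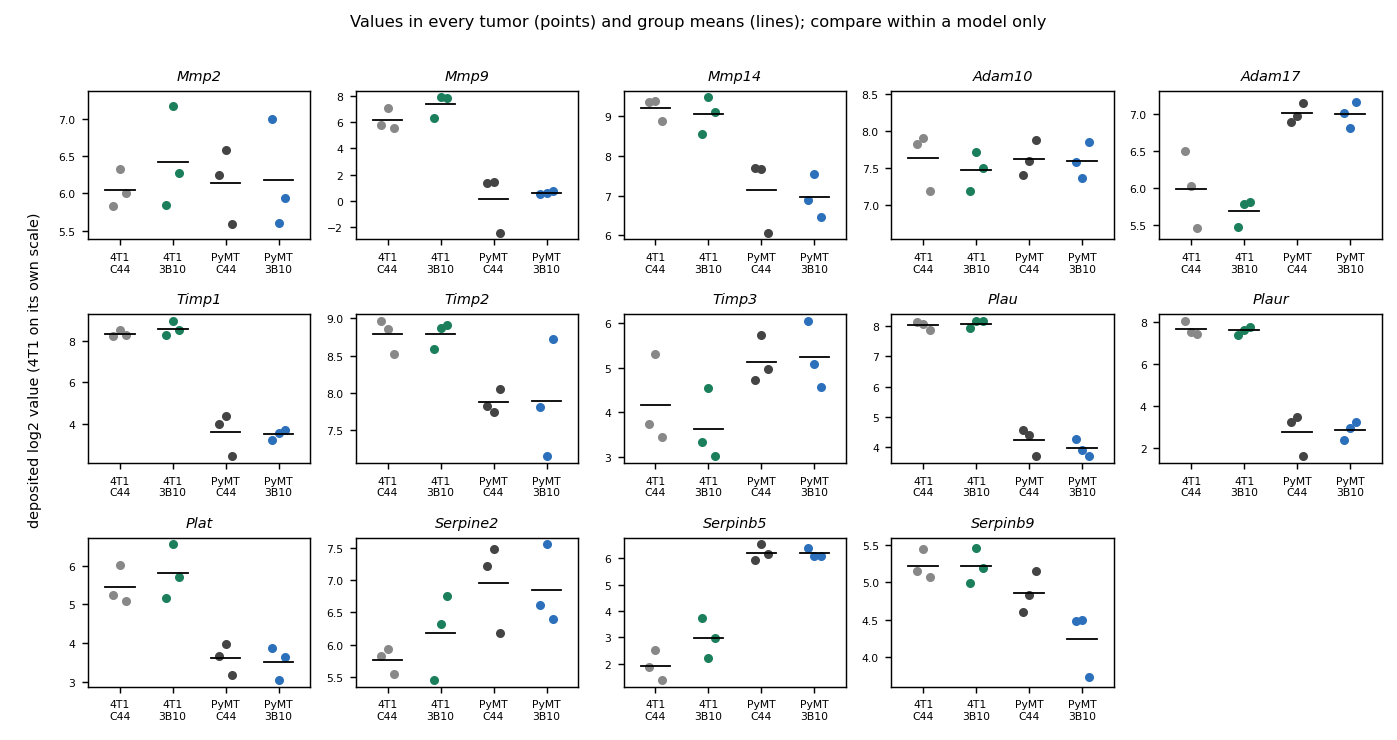
Deposited log2 values of 14 genes in each 4T1 and MMTV-PyMT (PyMT) tumor, with points for tumors and lines for means of 3; 4T1 values have their own scale and are to be compared within 4T1 only. The C44 and 3B10 groups overlap in each panel but that of Serpinb9 in MMTV-PyMT tumors.

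Other genes of these pathways were followed as lists, whose counts stand beside shares of all genes tested of 8.89% rising and 11.7% falling in E0771 cells and of 24.3% rising and 22.1% falling in E0771-LG cells. For the difference between the lines these shares were 18.3% higher and 15.7% lower, and between the control cells 20.5% higher and 37.3% lower. Of 16 genes of plasminogen binding and its activation, 9 were tested in E0771 cells, where S100a10, which holds plasminogen at the cell surface with Anxa2, fell (−0.59). In E0771-LG cells 5 of 8 tested rose and 0 fell: St14 (1.83), Hpn (1.10), F3 (0.56), S100a10 (0.49) and Anxa2 (0.43). The difference between the lines passed for St14 (1.70), S100a10 (1.07) and Anxa2 (0.57), 3 of 9. In control E0771-LG against E0771 cells, St14 (1.12) and F3 (0.59) were higher and Lrp1 (−2.38), Plgrkt (−0.76) and Anxa2 (−0.44) lower, 5 of 9. The list of 13 sheddase regulators holds the iRhoms that carry Adam17, the tetraspanins that carry Adam10, and the convertases that remove propeptides. In E0771 cells 3 of 9 rose, Tspan5 (1.67), Tspan33 (0.85) and Furin (0.33), and 2 fell, Rhbdf2 (−0.74) and Tspan17 (−0.64). In E0771-LG cells 3 of 10 rose, Tspan17 (1.06), Tspan5 (0.69) and Rhbdf1 (0.41), and 1 fell, Rhbdf2 (−0.57). Rhbdf2 was at 5.616, 5.987 and 5.725 log2 CPM with shCtrl and 4.761, 5.331 and 5.541 with shPTN. The size of its fall rests in part on E0771-LG shPTN replicate 1. Between the lines the effect differed for Tspan17 (1.70) and Tspan33 (−1.35). Among control cells 3 of 10 were higher in E0771-LG, Tspan15, Tspan5 (3.82) and Rhbdf1 (0.61), and 4 lower, Tspan17 (−1.67), Tspan33 (−1.28), Tspan14 (−0.65) and Frmd8 (−0.44). Tspan15 had 3, 0 and 1 reads in E0771 shCtrl, under the filter, and 73, 84 and 49 in E0771-LG shCtrl samples. Tspan5 had 5, 13 and 23 reads in the E0771 shCtrl samples, of which 1 passed the filter. Its 3.82 between the lines and its rise of 1.67 in E0771 cells thus rest on few reads in that group.

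Of 16 other protease inhibitors and their partners, 2 of 8 tested rose in E0771 cells, Cst3 (0.43) and Bsg (0.36), and Wfdc2 (−1.06) fell. In E0771-LG cells 3 of 8 rose, Cst6 (1.52), Bsg (0.88) and Wfdc2 (0.82), and 0 fell. The difference between the lines passed for Wfdc2 (1.88), Cst6 (1.07) and Bsg (0.51), 3 of 8. Among control cells Sparcl1 (1.93) was higher in E0771-LG and 4 of 8 were lower, Cst6 (−1.20), Wfdc2 (−1.07), Tfpi (−0.60) and Bsg (−0.48). Sparcl1 had 19, 9 and 5 reads in the E0771 shCtrl samples, of which 1 passed the filter, so its value rests on few reads. The list of 23 proteins shed from the membrane by ADAM proteases had 15 genes tested in each line, where 20.6% (E0771) and 46.4% (E0771-LG) of all genes passed. In E0771 cells 5 fell, Ereg (−1.99), Areg (−1.66), Btc (−1.63), Hbegf (−0.90) and Cd44 (−0.50), the first 4 of them ligands of the EGF receptor and its relatives, and 3 rose, Tnfrsf1b (0.63), Sdc4 (0.59) and Sdc1 (0.44). In E0771-LG cells 8 of 15 fell, beside 22.1% of all genes, of which the 6 largest were Ereg (−1.67), Vcam1 (−0.70), Hbegf (−0.66), Icam1 (−0.62), Notch1 (−0.59) and Cd44 (−0.57), and 1 rose, Epcam (0.46). The effect differed between the lines for 7 of 15, higher in E0771-LG for Btc (2.18) and Areg (1.62) and lower for Tnfrsf1b (−0.99), Notch1 (−0.91), Il6ra (−0.76), Cx3cl1 (−0.72) and Sdc4 (−0.66). Among control cells 5 of 15 were higher in E0771-LG, Vcam1 (2.84), Icam1 (1.22), Epcam (0.95), Tnfrsf1b (0.91) and Cx3cl1 (0.56), and 2 lower, Btc (−4.00) and Notch1 (−0.38). Btc had 13, 22 and 15 reads in the E0771-LG shCtrl samples, of which 1 passed the filter. Its −4.00 and its difference of effect of 2.18 thus rest on few reads in that group. In the tumors 0 genes of the 4 lists passed the test by limma, with medians between −0.16 and 0.19 in 4T1 and between −0.27 and 0.01 in MMTV-PyMT tumors.

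Markers of cell types were read in the same samples, where 20.6% of all genes passed in E0771 and 46.4% in E0771-LG cells. In E0771 cells 5 of 5 fibroblast markers tested, of 10 listed, rose with shPTN, Col3a1 (2.83), Col1a2 (2.36), Pdgfrb (1.61), Pdgfra (1.43) and Col1a1 (1.02). Col1a2 had 30, 15 and 5 reads in the shCtrl samples, of which 1 passed the filter, so the size of its rise rests on few reads. Sums of marker lists are in CPM in cells and MMTV-PyMT tumors, not divided by gene length, and on the 4T1 scale in 4T1 tumors. The fibroblast markers summed to 74.8, 101 and 86.5 in shCtrl and 331, 293 and 330.4 in shPTN samples. Pdgfra was the most abundant of them in shCtrl and Col3a1 in shPTN samples, and Thy1 or Lum was at 0 in 5 of the 6. The skeletal muscle gene Actn3 also rose (1.52), 1 of 2 tested, with sums of 5.39, 7.20 and 6.74 with shCtrl and 14.7, 13.5 and 15.0 with shPTN and Myh4 at 0 throughout. Of the other lists, 0 of 2 epithelial, 0 of 2 macrophage, 0 of 1 neutrophil and 0 of 1 adipocyte markers tested passed by limma, and no endothelial or T cell marker was tested. In E0771-LG cells 3 of 3 epithelial markers tested rose, Krt18 (3.00), Krt8 (1.57) and Epcam (0.46), with sums of 158, 204 and 164 in shCtrl and 424, 565 and 516 in shPTN samples, Krt8 the most abundant. Krt18 passed the filter through the shPTN samples alone, with 13, 18 and 16 reads with shCtrl and 117, 150 and 125 with shPTN. There the fibroblast markers Col1a1 (−4.68) and Pdgfra (−0.68) fell and Dcn (1.64) rose, 3 of 6 tested, with sums of 92.0, 145 and 107 with shCtrl and 58.3, 66.3 and 73.8 with shPTN. Dcn had 19, 30 and 5 reads with shCtrl and 34, 61 and 49 with shPTN, so the size of its rise rests in part on shCtrl replicate 3. Col1a1 passed the filter through the shCtrl samples alone. Of 2 muscle markers tested Acta1 fell (−1.20) and Mylpf, past the filter through the shPTN samples alone, did not pass (1.09), and of 3 macrophage markers Cd14 (−1.15) and Mrc1 (−0.81) fell and Cd68 (2.17) rose. Fabp4, the 1 adipocyte marker tested, fell (−2.46). Cd3d, the 1 T cell marker tested, rose (1.78), but passed the filter through the shPTN samples alone, with Cd3e and Cd8a at 0 in 5 of 6 samples, while C1qa and Csf3r were at 0 in each E0771-LG sample. The endothelial and neutrophil lists had 0 of 1 called in E0771-LG cells. What part the marker changes have in the protease results was not tested.

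Beside 34.0% of all genes, the difference between the lines passed for 2 of 3 epithelial markers, Krt18 (3.90) and Krt8 (1.62), and for 5 of 6 fibroblast markers, higher for Dcn (3.07) and lower for Col1a1 (−5.70), Col3a1 (−3.29), Pdgfrb (−2.72) and Pdgfra (−2.10). It also passed for Cd68 (3.09) and Acta1 (−3.19), and for 0 adipocyte, endothelial, neutrophil or T cell markers, 1 of each tested. In control E0771-LG against E0771 cells, where 57.9% of all genes passed, the markers that did were Krt18 (2.32), Epcam (0.95) and Krt8 (0.69) of the epithelial list, Dcn (2.09), Pdgfrb (1.49) and Pdgfra (1.10) (higher) and Col3a1 (−2.15) and Col1a1 (−1.03) (lower) of the fibroblast list, and Mrc1 (3.46) and Cd14 (1.23) (higher) and Cd68 (−3.24) (lower) of the macrophage list. The muscle markers Acta1 (3.82), Actn3 (−4.17) and Mylpf (−1.71) passed too, as did Fabp4 (3.24) and Cd3d (3.01), but no endothelial or neutrophil marker. Dcn, Mrc1 and Acta1 had no E0771 shCtrl sample past the filter, Actn3 and Mylpf no E0771-LG shCtrl sample, and Krt18 and Cd3d neither, so these values, and the differences of effect above for the same genes, rest on few reads in at least 1 line. In the tumors 0 markers of the 8 lists passed by limma. Summed skeletal muscle markers in 4T1 tumors nonetheless had no overlap, at 13.1, 11.99 and 27.3 with C44 and 40.9, 179 and 268 with 3B10 (Tnnt3 the most abundant in 5 of 6 tumors), and Actn3 passed the filter there through the 3B10 samples alone and Acta1 in 1 C44 and 3 3B10 samples. T cell markers in 4T1 tumors summed to 32.8, 45.6 and 47.0 with C44 and 20.9, 23.6 and 6.05 with 3B10, and epithelial markers to 3192, 3464 and 3451 with C44 and 4940.0, 4460.0 and 5100.0 with 3B10, each also apart. Fibroblast markers overlapped, at 1686, 2402 and 1499 with C44 and 1327, 4758 and 2150.0 with 3B10, as did macrophage markers, at 4505, 4404 and 4904 with C44 and 3038, 4408 and 2808 with 3B10, and neutrophil markers, at 1120.0, 1050.0 and 1888 with C44 and 1158, 736 and 581 with 3B10. Endothelial and adipocyte sums overlapped as well. Of all single genes tested in 4T1 tumors, 11.3% had C44 and 3B10 values apart, and the sums themselves were not tested. In MMTV-PyMT tumors the sums of the 8 lists overlapped between C44 and 3B10, as in the epithelial list, at 5195, 4603 and 3671 with C44 and 4139, 4473 and 3717 with 3B10. Whether cell content had a part in the tumor values was not tested.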

How the data were processed

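RNA was sequenced from 24 samples, 6 in each of 4 experiments. The log2 values deposited by the authors were used as they are, and no reads were mapped again; whole reads recovered from the 18 columns of MMTV-PyMT tumors and cells gave the depth. Each experiment was fitted with limma 3.58.1 (R 4.3.3; lmFit, eBayes with trend and robust), for genes at least 1 above the lowest value of the sample, off the log scale, in at least 3 samples. The 12 cell samples were fitted together for the comparison of lines and the interaction. Adjustment was by Benjamini-Hochberg over all genes tested, at 0.05. Named are up to 12 genes passing per direction, 13 further members in each experiment, and up to 6 genes of each list. Other filters, pseudocounts, scalings, voom, a replicate block and leaving out each sample were tried. Tables and figures were made with Python 3.11.15, pandas 2.3.3, numpy 2.4.6, scipy 1.17.1 and matplotlib 3.10.9. The members and lists were chosen with earlier results of these data known. Counts cover the 48 members, of which 1 is not reported here by name.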

Additional observations from a re-analysis of the deposited data

Results flagged for a closer look

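For 12 of 36 genes (33.3%, near the 34.0% of all genes tested) the knockdown effect differed between the lines at an adjusted p under 0.05 in the interaction test by limma, with values given as the log2 effect in E0771-LG minus that in E0771 cells. The effect was higher in E0771-LG cells for Mmp11 (1.59), Serpinb6a (1.21) and Plaur (0.98). It was lower for Mmp13 (−3.56), Mmp2 (−2.04), Mmp10 (−1.93), Mmp3 (−1.64), Adam19 (−1.39), Adamts8 (−0.97), Timp2 (−0.92), Serpinb6b (−0.71) and Adam10 (−0.46). For Mmp2 and Timp2 (up in E0771, down in E0771-LG) and for Plaur and Serpinb6a (down in E0771, up in E0771-LG) both lines passed the test with opposite signs. Mmp13 passed the filter through 2 E0771 shPTN and 2 E0771-LG shCtrl samples alone (Mmp10 too had no E0771 shCtrl sample past it), and its difference was −1.50 with a pseudocount of 1. The Mmp13 difference was no longer called without E0771 shPTN replicate 3 or E0771-LG shPTN replicate 2. The Adamts8 difference was lost in 10 of 21 alternatives, and the Timp2 fall in E0771-LG cells without shPTN replicate 2 (adjusted p = 0.0767) or 3 (adjusted p = 0.0674). Each line had 1 construct and separately selected populations, and the cause of the differences was not tested.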

How the results depend on the processing

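Over the alternatives the count of genes passing was 8 to 12 in E0771 cells (11 as reported), 10 to 20 in E0771-LG cells (16), 10 to 15 for the difference between the lines (12) and 19 to 26 between the control cells (26), and 0 in the tumors throughout. Requiring a log2 fold change of at least 0.5 in size left 8, 10, 11 and 19. Leaving out 1 library gave 9 to 12, 10 to 20, 10 to 14 and 21 to 26, the 10 in E0771-LG cells being without E0771-LG shPTN replicate 2. In every alternative other than that threshold 8 of 11, 10 of 16, 10 of 12 and 17 of 26 genes passed, and no gene that passed changed sign. Blocking on replicate number gave counts of 12, 18, 15 and 26; the samples share only a number, and samples with the same number did not correlate best with each other throughout. Voom gave 11, 16, 13 and 26, and was not run for 4T1 tumors, which have no whole reads. The cause of these shifts was not tested. Genes with few reads, such as Mmp13, have imprecise fold changes, and 3 samples per group leave smaller effects undetected.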

Other observations

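Of the 48 genes, 16 have no promoter among those at hand, Mmp9, Plau, Plat and Mmp2 among them. No protein or protease activity was measured in these samples.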
